A study of Juglans regia with 12 samples.

Results

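The miR396 family was examined in small RNA libraries of walnut flower buds, as the 30 of 931 listed sequences that the deposited table matches, by number, to a miR396 of another species. Of these, 17 sequences had at least 60 counts over the 6 libraries and are described singly. The other 13, with 114 counts in all, are described as a sum. The choice used names and total counts and no difference between walnut types; the last sequence inside the limit, jre-MIR396-6, had 61 counts, and the first outside it, jre-MIR396-5, had 35. The early-flowering group is a precocious walnut (coded ZS, stage given as early flower), and the late-flowering group is a late fruiting walnut (coded WS, stage given as late flower). Both are Juglans regia, field-grown, with 3 libraries of flower buds each, and neither carries a stated transgene or treatment. Type and bud stage cannot be told apart, and whether the replicates are separate trees is not stated. P-values here therefore reflect the scatter among these libraries, part or all of which may be technical. The libraries held 309697, 611620 and 646408 counts of listed miRNAs in early-flowering replicates 1 to 3, against 614838, 447102 and 473151 in late-flowering replicates 1 to 3.

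miR396 is a plant miRNA conserved across seed plants. It pairs with mRNAs of growth-regulating factors (GRFs), transcription factors that act with GRF-interacting factors to keep cells dividing in leaves, meristems and floral organs, and it lowers their level. In Arabidopsis, a higher level of miR396 gives smaller organs, and TCP transcription factors, themselves targets of miR319, raise miR396. The functional strand comes from the 5p arm of the hairpin, and the 3p strand is its partner in the duplex.

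The sequences that carry most of the family are shown 5′ to 3′ as deposited, in DNA letters, with the seed (bases 2 to 8) in capitals. The first group is that of the functional strand, and these 6 differ in the seed or in the last bases. The 2 below them are the most abundant of the opposite arm.
jre-MIR396-11: tTCCACAGctttcttgaactt
jre-MIR396-3: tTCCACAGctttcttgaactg
jre-MIR396-20: tTCCACAGctttcttgaacta
jre-MIR396-23: tTCCACAGctttcttgaacgt
jre-undef-188: tTCCACGGctttcttgaactt
jre-MIR396-2: tTCCACGGctttcttgaactc
jre-MIR396-10: gCTCAAGAaagctgtgggaga
jre-MIR396-13: gTTCAATAaagctgtgggaag

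Positions are counted from 1 at the 5′ end, with the base of jre-MIR396-11 first. Against it, jre-MIR396-3 has T21G, jre-MIR396-20 has T21A and jre-MIR396-23 has T20G, so these 4 forms share one seed. jre-undef-188 has A7G, inside the seed, and jre-MIR396-2 has A7G and T21C. The seed TCCACAG was shared by 6 members with 84.6% of the family's counts over all libraries, and the variant seed TCCACGG by 4 members with 2.92%. On the opposite arm the seed TTCAATA held 6.24% in 2 members and CTCAAGA 6.12% in 3 members. Laid out as a duplex with 2-base 3′ overhangs, each of jre-MIR396-10 and jre-MIR396-13 pairs with jre-MIR396-11 and with jre-MIR396-3 at 17 Watson-Crick and 1 wobble position of 19, with 1 unpaired. jre-MIR396-11 and jre-MIR396-3 differ only at base 21, outside the 19 positions, so this layout cannot separate them. jre-MIR396-10 and jre-MIR396-13 gave the same counts of pairs. Pairing therefore does not say which strands come from one hairpin. By name, jre-MIR396-11 and jre-MIR396-10 are matched to the 5p and 3p arms of the same citrus miRNA, csi-miR396f.

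As a whole, miR396 was the third most abundant of 345 families by matched number, with 10.4% of all counts. It took 10.9%, 10.4% and 8.36% of the early-flowering libraries, against 8.79%, 13.5% and 11.7% of the late-flowering ones. These ranges overlap, and the highest share was that of late-flowering replicate 2. Levels below are CPM, counts in a library relative to its TMM-scaled size (trimmed mean of M-values). Fold changes are given as log2 differences, positive where early-flowering buds were higher.

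The members not matched to a 3p arm, 19 in number, summed to 105165, 92011 and 73704 CPM in early-flowering buds, against 79577, 118142 and 90080 CPM in late-flowering buds. Their means were 90294 ± 15801 CPM and 95933 ± 19937 CPM (SD, n = 3 each). The log2 fold change was −0.087 (SE 0.21, 95% interval −0.58 to 0.40; edgeR quasi-likelihood test, adjusted p = 0.767), so the functional strand as a sum showed no difference larger than the replicate spread. The interval still allows changes of up to those bounds. Without late-flowering replicate 2, which had the highest level, the value was 0.033. Among all 60 family and arm sums tested, 15% passed an adjusted p of 0.05.

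jre-MIR396-11, the most abundant member and the third most abundant of all listed sequences, had 56438, 52883 and 45952 CPM in early-flowering buds, against 34670, 70609 and 43391 CPM in late-flowering buds. The late-flowering libraries included both the highest and the lowest level, and the early-flowering ones lay between them. The fold change was 0.063 (SE 0.28, 95% interval −0.57 to 0.70; edgeR adjusted p = 0.885), and its sign depended on the scaling. It was −0.032 with DESeq2 size factors and −0.038 with total counts. Quantile normalization with limma-trend gave 0.44 (limma adjusted p = 0.198).

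jre-MIR396-3, the form that ends in G, had 37832, 28383 and 20993 CPM in early-flowering buds, against 38717, 39391 and 38313 CPM in late-flowering buds. Every late-flowering library lay above every early-flowering one, but early-flowering replicate 1 missed the late-flowering range by only a small margin. Late-flowering levels were tight (38807 ± 544 CPM, n = 3) and early-flowering levels were spread (29069 ± 8441 CPM, n = 3). The fold change of −0.42 (SE 0.24, 95% interval −0.97 to 0.13) did not pass (edgeR adjusted p = 0.233). Without early-flowering replicate 1, the library with the lowest total and the early-flowering one nearest the late-flowering levels, it was −0.71 (edgeR adjusted p = 0.0514). Without any other single library it lay between −0.49 and −0.42. Quantile normalization with limma-trend gave −0.12 (limma adjusted p = 0.683). Over all the alternatives tried the adjusted p was never under 0.0514.

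The 2 other common forms with the same seed differ from these at the 3′ end. jre-MIR396-20, which ends in A, had 4290, 3084 and 1431 CPM in early-flowering buds, against 1930, 3084 and 3545 CPM in late-flowering buds (log2 0.040; edgeR adjusted p = 0.941). These libraries overlapped almost completely. jre-MIR396-23 had 2977, 2533 and 1680 CPM in early-flowering buds, against 1356, 1849 and 1804 CPM in late-flowering buds (log2 0.52, SE 0.28; edgeR adjusted p = 0.204). Its groups overlapped through early-flowering replicate 3. Whether such end forms come from loci of their own or from altered ends of the abundant forms was not tested.

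**Figure D1:**
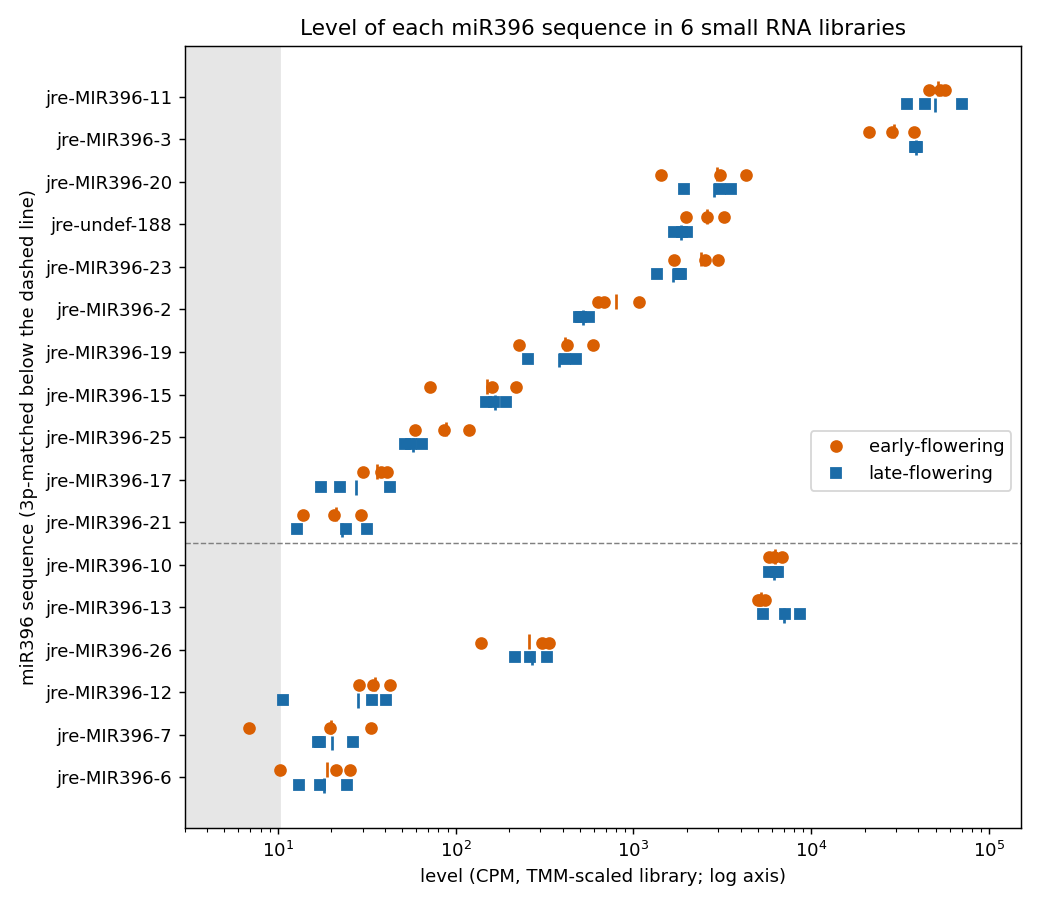
Level of each of the 17 miR396 sequences with at least 60 counts (rows) in CPM on a log axis; circles are the 3 early-flowering libraries, squares the 3 late-flowering ones, vertical ticks the group means, and the grey band reaches up to 10.3 CPM, the level of 3 counts in the smallest library. Sequences not matched to 3p stand above the dashed line. The circles and squares overlap in 15 of 17 rows; jre-MIR396-2 lies higher and jre-MIR396-3 lower in early-flowering buds.

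The variant-seed forms carry A7G, and the 4 of them summed to 2753, 4453 and 3281 CPM in early-flowering buds, against 2440, 2556 and 2306 CPM in late-flowering buds. At this scaling all early-flowering libraries were above all late-flowering ones, by a small margin for early-flowering replicate 1. Against unscaled totals they were not: early-flowering replicate 1 had 799 of 309697 counts, below late-flowering replicate 2 with 1189 of 447102. The grouping by seed was made after the values were seen, and its summed level was not tested. The share test of the same group, given further below, uses the same values. Its main member, jre-undef-188, which the deposited family column leaves without a family, had 1967, 3229 and 2580 CPM in early-flowering buds, against 1872, 1995 and 1683 CPM in late-flowering buds. One early-flowering library fell within the late-flowering range, and the fold change of 0.49 (SE 0.25, 95% interval −0.078 to 1.05) did not pass (edgeR adjusted p = 0.190). jre-MIR396-2 had 686, 1078 and 631 CPM in early-flowering buds, against 494, 505 and 565 CPM in late-flowering buds. Its groups did not overlap at this scaling. Against unscaled totals they did: early-flowering replicate 3 had 397 of 646408 counts, and late-flowering replicate 3 had 302 of 473151. Its fold change of 0.62 (SE 0.28, 95% interval −0.025 to 1.26) was the highest of the 17 members and did not pass (edgeR adjusted p = 0.155). jre-MIR396-25, with A7G and T20C, averaged 88.1 ± 30.4 CPM in early-flowering buds and 57.6 ± 6.85 CPM in late-flowering buds (n = 3 each; log2 0.61, edgeR adjusted p = 0.217). The fourth, jre-MIR396-5, had 4, 16 and 7 counts in early-flowering libraries, against 5, 2 and 1 in late-flowering ones, and was too low to test. Without early-flowering replicate 2, fold changes were 0.29 for jre-MIR396-2, 0.26 for jre-MIR396-25 and 0.27 for jre-undef-188. For each of these members that was the lowest value with any single library left out.

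The 3p-matched members, 11 in number, summed to 11160, 12082 and 12182 CPM in early-flowering buds, against 15454, 11454 and 13842 CPM in late-flowering buds. The early-flowering libraries were close together and lay near the lowest late-flowering one. The fold change was −0.20 (SE 0.19, 95% interval −0.64 to 0.24; edgeR adjusted p = 0.495). Of the 2 main strands, jre-MIR396-10 had 5785, 6173 and 6824 CPM in early-flowering buds, against 6460, 5780 and 6332 CPM in late-flowering buds (log2 0.016, SE 0.19, 95% interval −0.42 to 0.46; edgeR adjusted p = 0.942). Its groups overlapped, with SDs of 525 CPM in early-flowering and 361 CPM in late-flowering buds. jre-MIR396-13 had 4989, 5515 and 5123 CPM in early-flowering buds, against 8682, 5346 and 7109 CPM in late-flowering buds. Its early-flowering levels overlapped only late-flowering replicate 2, and the fold change of −0.44 (SE 0.23, 95% interval −0.97 to 0.099) did not pass (edgeR adjusted p = 0.207).

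Ratios between counts of the same library need no scaling, and 7 of them were tested, 4 chosen after the values were seen. P-values are adjusted over these 7 alone, and further ratios were looked at without a test. The ratio of jre-MIR396-10 to jre-MIR396-13 was 1.16, 1.12 and 1.33 in early-flowering libraries, against 0.744, 1.08 and 0.891 in late-flowering ones. These groups did not overlap, and the mean log2 ratios were 0.26 ± 0.13 and −0.16 ± 0.27 (SD, n = 3 each), or 1.34-fold apart. A two-sided exact permutation test gave p = 0.1 (0.467 adjusted over the 7), the lowest possible with 3 libraries against 3.

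On the functional strand, the ratio of jre-MIR396-11 to jre-MIR396-3 was 1.49, 1.86 and 2.19 in early-flowering libraries, against 0.895, 1.79 and 1.13 in late-flowering ones. The form ending in T was thus the more abundant in 5 of 6 libraries, and the groups overlapped through late-flowering replicate 2. The difference was 0.58 on the log2 scale (exact permutation p = 0.2, adjusted p = 0.467). jre-MIR396-11 made up 53.7%, 57.5% and 62.3% of the counts not matched to 3p in early-flowering libraries, against 43.6%, 59.8% and 48.2% in late-flowering ones (exact permutation p = 0.3, adjusted p = 0.525). Wilson 95% intervals of such shares were at most 0.559 percentage points to either side, and they cover counting error only. The spread between libraries was therefore far wider than counting error.

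**Figure D2:**
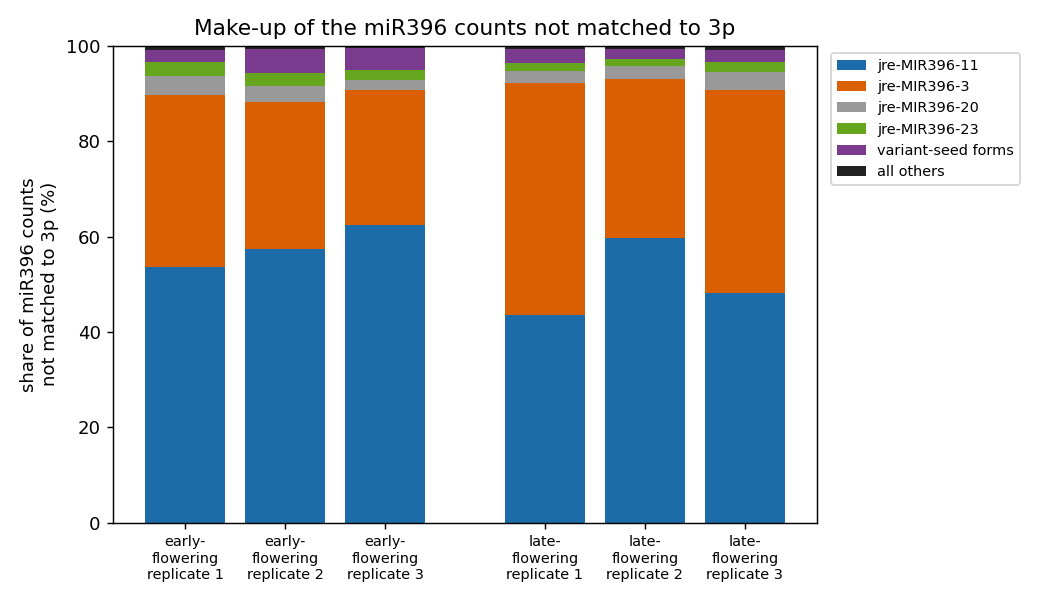
Share of each form in the miR396 counts not matched to 3p (percent, stacked to 100), with 1 bar per library, early-flowering libraries at the left and late-flowering ones at the right. jre-MIR396-11 ranges from 53.7% to 62.3% in early-flowering and from 43.6% to 59.8% in late-flowering libraries, and jre-MIR396-3 takes most of the rest.

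The variant-seed share of the counts not matched to 3p was 2.62%, 4.84% and 4.45% in early-flowering libraries, against 3.07%, 2.16% and 2.56% in late-flowering ones. Early-flowering replicate 1 lay inside the late-flowering range here (exact permutation p = 0.2, adjusted p = 0.467). Per count of jre-MIR396-11, from which it differs by A7G, jre-undef-188 was at 0.0349, 0.0611 and 0.0562 in early-flowering libraries, against 0.0540, 0.0282 and 0.0388 in late-flowering ones (exact permutation p = 0.4, adjusted p = 0.56). These ratios varied about as much within a type as between types.

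The 3p-matched counts were 0.106, 0.131 and 0.165 times the other miR396 counts in early-flowering libraries, against 0.194, 0.0970 and 0.154 in late-flowering ones. Both extremes were late-flowering libraries (difference −0.11 on the log2 scale, exact permutation p = 0.8, adjusted p = 0.9). Sequences of 21 bases, the length typical of plant miRNAs, made up 99.2% to 99.5% of the counts not matched to 3p in early-flowering libraries and also 99.2% to 99.5% in late-flowering ones (exact permutation p = 0.9, adjusted p = 0.9). Arms were taken from names, and 3 members with no arm in their name, of which jre-MIR396-21 is the only one described singly, have the letters of the 3p strand.

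**Figure D3:**
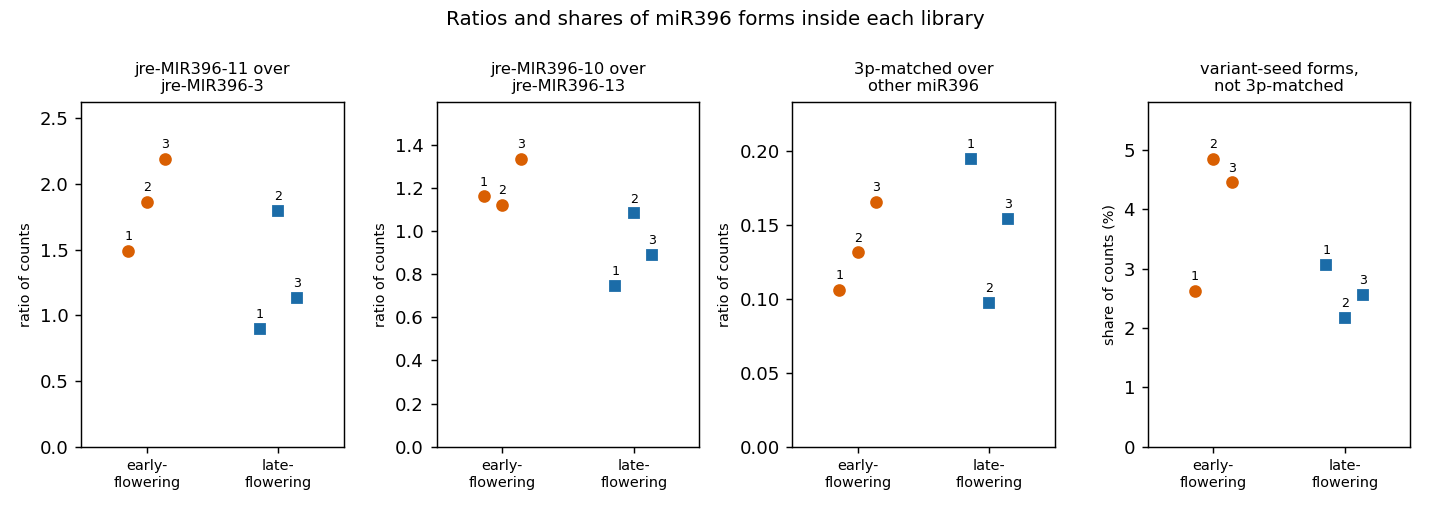
Ratios of counts and a share of counts (percent) inside each library, with early-flowering libraries as circles at the left and late-flowering ones as squares at the right of each panel; the small digits are replicate numbers and each axis starts at 0. In the plot of jre-MIR396-10 over jre-MIR396-13 the early-flowering libraries, 1.12 to 1.33, lie above the late-flowering ones, 0.744 to 1.08, and in the other panels the groups overlap.

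The remaining members among the 17 overlapped between types. jre-MIR396-19, a form of 20 bases, had 227 to 589 CPM in early-flowering buds and 255 to 474 CPM in late-flowering buds. jre-MIR396-15, which is jre-MIR396-3 with 1 more base at the 3′ end, had 71.5 to 217 CPM in early-flowering buds and 148 to 191 CPM in late-flowering buds. jre-MIR396-26, which has G21A against jre-MIR396-13, had 138 to 334 CPM in early-flowering buds and 215 to 328 CPM in late-flowering buds. The 5 lowest of the 17 (jre-MIR396-6, jre-MIR396-7, jre-MIR396-12, jre-MIR396-17 and jre-MIR396-21) stayed between 6.89 and 42.5 CPM in early-flowering buds and between 10.7 and 43.0 CPM in late-flowering buds. Only the lowest of these values were near the level of 3 counts (4.77 to 10.3 CPM). The 13 members under the limit summed to 9, 32 and 24 counts in early-flowering libraries, against 16, 22 and 11 in late-flowering ones.

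All 17 members described singly entered the test, and 0 passed an edgeR adjusted p of 0.05 in either direction, with 0 at an unadjusted p under 0.05 and 0 by DESeq2 or limma-trend. Over all 243 sequences tested, 11.5% passed by edgeR (4.94% higher and 6.58% lower). Of the same 243, 83 had an unadjusted edgeR p under 0.05. The DESeq2 test passed 38 of them and limma-trend 31. The members' median log2 fold change was 0.080, against 0.13 over all tested sequences, with 12 positive and 5 negative values. At the TMM-scaled levels, groups did not overlap for 2 of the 17, 1 higher and 1 lower. Over all tested sequences this held for 37.4%, 19.8% higher and 17.7% lower. The members' fold changes spanned −0.44 to 0.62, while the 10th and 90th percentiles of all tested sequences were −1.13 and 1.30. Members that differ by a base or by their ends are not independent of each other.

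**Figure D4:**
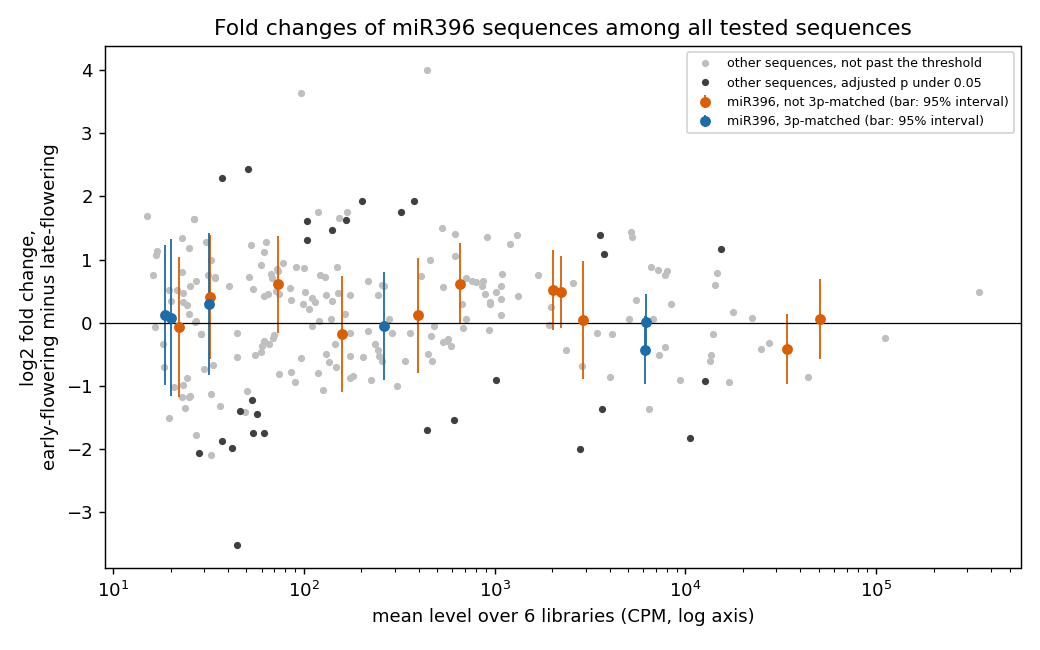
Log2 fold change (early-flowering minus late-flowering) against mean level over 6 libraries (CPM, log axis) for 243 tested sequences; grey points did not pass and dark points passed an adjusted p of 0.05, and coloured points are the 17 miR396 members with 95% intervals. Every interval of a member includes 0.

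Other miRNAs of organ growth were counted for comparison, from a list of miR319, miR164, miR165, miR166, miR160, miR167 and miR394. Of 66 tested sequences of the list, 3 rose and 2 fell (7.58%, against 11.5% of all tested sequences), and the median log2 fold change was 0.34, against 0.13 over all. Each of these calls was lost without late-flowering replicate 3 (edgeR adjusted p of 0.0811 to 0.151), and the list also had 0 calls when replicate 2 of either type was left out. The families of the list did not share a direction. Median log2 fold changes were 1.32 for miR319, 0.67 for miR164, 0.56 for miR394 and 0.44 for both miR166 and miR160. For miR167, with 18 of the 66 sequences, the median was −0.29. The 3 that rose were all matched to miR319, which acts on TCP genes, though the deposited ID of 2 of them names the related MIR159: jre-MIR159-3 (log2 1.09), jre-MIR159-32 (2.43) and jre-MIR319-4 at 148 ± 13.8 CPM in early-flowering and 59.4 ± 18.3 CPM in late-flowering buds (n = 3 each; log2 1.31, edgeR adjusted p = 0.0272). The 2 that fell were both from the arm opposite the functional strand, jre-MIR160-4 (log2 −1.40) of the family that acts on auxin response factors and jre-MIR166-24 (log2 −1.54) of the family that acts on HD-ZIP III genes.

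By Pearson correlation of log2 CPM over the 6 libraries, the tested sequences outside the family most like jre-MIR396-11 were jre-MIR399-15 (r = 0.862), jre-MIR394-2 (r = 0.861) and jre-MIR399-2 (r = 0.767). The points share libraries and scaling, so these values are a description. jre-MIR394-2 had 128, 81.8 and 81.1 CPM in early-flowering buds, against 54.5, 108 and 61.8 CPM in late-flowering buds, with late-flowering replicate 2 again the highest of its type.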

How the data were processed

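The deposited miRNA table holds raw counts per mature sequence and library, per the file headers, beside the best-matching miRNA name from other plants. The labels' protocol names poly(A) selection and a stranded mRNA kit for every sample, the miRNA ones included. For the small RNA libraries, no source used here describes the authors' construction, mapping and naming steps; FastQC, HISAT2, Cufflinks and DESeq2 are listed in the submitters' processing notes without a role. Column totals include listed miRNAs alone, so full library depth is not known from them. The mRNA table was not used here, since its gene IDs matched no entry of the reference gene table and GRF genes could not be looked up.

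Counts were tested over all sequences with edgeR 4.0.16 in R 4.3.3, using filterByExpr with a minimum count of 10, TMM scaling after the filter, and robust quasi-likelihood fits with walnut type as the only term, which left 243 sequences; p-values were adjusted by Benjamini-Hochberg at 0.05. Counts summed per family and arm (60 sums tested) used the same library sizes. Ratios were tested by exact permutation in scipy 1.17.1. Replicates differed beyond sampling noise, with chi-square per degree of freedom of 38.0 to 169. Each library was counted once, though this spread does not show that the replicates are separate trees. Alternatives included DESeq2 1.42.0, limma 3.58.1, other scalings and filters, joining near-identical sequences, a replicate block, and leaving out single libraries. Members with at least 60 counts are named singly, with the 3 sequences most like jre-MIR396-11. The members and lists were chosen with earlier results of these data known, and the ratios of single forms and the grouping by seed after their values were seen.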

Additional observations from a re-analysis of the deposited data

How the results depend on the processing

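None of the 17 members passed the threshold in 163 fits under other scalings, filters and tests or in 100 fits with a library left out, and the lowest adjusted p was 0.0514. The fold change kept its direction throughout for jre-MIR396-2, jre-MIR396-3, jre-MIR396-13, jre-MIR396-15, jre-MIR396-17, jre-MIR396-23, jre-MIR396-25 and jre-undef-188. For other members the log2 values changed sign as follows; the cause was not tested. With DESeq2 size factors they were −0.037 for jre-MIR396-10, −0.032 for jre-MIR396-11 and −0.077 for jre-MIR396-20, and with the DESeq2 test −0.037, −0.032 and −0.076 in that order. With total counts they were −0.070 for jre-MIR396-10, −0.038 for jre-MIR396-11, −0.0071 for jre-MIR396-19 and −0.084 for jre-MIR396-20. TMM without the most abundant sequence, which moved the median of all sequences by −0.12, gave −0.011 for jre-MIR396-7, −0.11 for jre-MIR396-10, −0.099 for jre-MIR396-11, −0.052 for jre-MIR396-19 and −0.13 for jre-MIR396-20. Quantile normalization with limma-trend, which moved that median by −0.11, gave −0.096 for jre-MIR396-19, −0.12 for jre-MIR396-20, 0.15 for the sum not matched to 3p and 0.13 for the 3p-matched sum. Limma-trend gave −0.16 for jre-MIR396-7 and −0.052 for jre-MIR396-20. Without a filter, values were −0.029 for jre-MIR396-10 and −0.018 for jre-MIR396-20. The median there differed by −0.13, but it was taken over 931 sequences and not over the same 243. With at least 10 CPM in 3 libraries, values were −0.052 for jre-MIR396-10, −0.027 for jre-MIR396-11 and −0.041 for jre-MIR396-20. Joining near-identical sequences gave −0.0063 for jre-MIR396-7 and −0.028 for jre-MIR396-10.

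With libraries left out in turn, ranges that cross 0 were −0.26 to 0.40 for jre-MIR396-6, −0.066 to 0.37 for jre-MIR396-7, −0.22 to 0.046 for jre-MIR396-10, −0.15 to 0.35 for jre-MIR396-11, −0.11 to 0.64 for jre-MIR396-12, −0.30 to 0.21 for jre-MIR396-19, −0.42 to 0.16 for jre-MIR396-20, −0.37 to 0.23 for jre-MIR396-21, −0.35 to 0.067 for jre-MIR396-26 and −0.28 to 0.033 for the sum not matched to 3p. The range of jre-MIR396-7 covers only 4 of these fits. It did not pass the count filter without early-flowering replicate 3 or without late-flowering replicate 1. The log2 ratio of jre-MIR396-10 to jre-MIR396-13 stayed between 0.29 and 0.56, that of jre-MIR396-11 to jre-MIR396-3 between 0.36 and 0.86, and that of 3p-matched to other counts between −0.39 and 0.11. The count of all sequences that passed, 28, ranged from 2 without late-flowering replicate 3 to 54 without early-flowering replicate 1, and an adjusted p under 0.01 left 8.

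With the replicate block, 17 sequences passed, none of them miR396, and values were −0.012 for jre-MIR396-7 and −0.049 for jre-MIR396-20. Same-numbered libraries of the types showed no shared deviation (correlations across sequences of −0.098, −0.076 and −0.34), and no library had its own number as best partner. Reading arms from the sequence, an alternative chosen after seeing the data, moved no ratio by more than 1 SD between replicates. The 3 members it reassigned held only 72, 4 and 9 of the 281474 counts not matched to 3p, so the ratios could hardly move. The log2 difference of 3p-matched to other counts went from −0.1097 to −0.1092.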

Other observations

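The minor miR396 forms were also set against the common forms of their arm inside each library, as 26 ratios of 13 of the 17 members described singly, chosen after the values were seen and given with no test. Early-flowering libraries were above all late-flowering ones in 6 of these ratios and below them in 0, which is 23.1%. The scaled levels of all tested sequences, a different measure, did not overlap for 37.4%, with 19.8% higher. No such share was taken over ratios of other sequences, and these ratios reuse the same few common forms. Of the 6, 4 are ratios to jre-MIR396-3. Per 100 counts of jre-MIR396-3, jre-MIR396-23 had 7.87, 8.92 and 8.01 counts in early-flowering libraries, against 3.50, 4.69 and 4.71 in late-flowering ones. jre-undef-188 had 5.20, 11.4 and 12.3 per 100 counts of jre-MIR396-3 in early-flowering libraries, against 4.84, 5.06 and 4.39 in late-flowering ones. jre-MIR396-3 itself was lower in each early-flowering library than in any late-flowering one, and per 100 counts of jre-MIR396-11 the groups overlapped for both forms.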
